A study of Drosera capensis with 12 samples.

Results

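In traps of Drosera capensis, the Cape sundew, 96 transcript features out of 397048 in a de novo assembly had a similar, moderate increase in their mean level whether the trap was closed by glutathione or by living prey. They were chosen on the measured values, and not all of them pass a test of each increase. Each had a change of at least 1 and under 2.5 on the log2 scale after both stimuli, the changes differed by less than 0.4, and the mean of each mock group was under 300 TPM. In both comparisons the lowest closed library also lay above the highest mock library, which 12.5% of tested features met after GSH and 10.9% after flies; nothing is read from this, since the rule demands it. TPM here is a library's deposited value divided by the library's sum and multiplied by 1e+06. A change is the log2 ratio of (mean closed TPM + 1) to (mean mock TPM + 1), minus the median of that ratio over the 30755 features above 0 in all 12 libraries. This median was -0.34 after GSH and -0.02 after flies. Adding 1 understates the change of low features.

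Sundews are carnivorous plants whose leaves carry glandular tentacles with sticky mucilage. Captured prey sets off electrical and calcium signals and jasmonate hormone signalling. The tentacles and the leaf bend around the prey, and the glands secrete digestive enzymes. Glutathione (GSH) is a small thiol tripeptide that plants use as a redox buffer and as a carrier of reduced sulfur. The study applied it to the petiole as a chemical trigger of closure, beside prey as the natural one.

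The groups were traps closed after 100 mM GSH on the petiole, mock traps without the small molecule (GSH mock), traps closed on living fruit flies, and traps left without stimulation (fly mock), with 3 libraries each. The labels name leaf as the tissue of all 12 libraries and give no genotype or plant age. The sample codes of the fly mock begin with 0min, and no label gives the time after the stimulus for the closed traps. Separate plants are not stated for the 3 samples within a group. The p-values therefore cover the variation among the samples sequenced, and this can be technical. The titles of the fly-closed libraries name flies while their agent label reads GSH, and the titles were followed.

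No gene names come with the assembly IDs in the sources used here. The features are therefore described by their levels and by their rank in mean TPM over the 12 libraries (rank 1 is the highest), and 2 of them are named by their assembly ID. Lists of jasmonate, glutathione, digestion, signalling and cell wall genes could not be applied, nor could markers of the trap's cell types. Fewer cells of a type and less RNA per cell cannot be told apart in such whole-trap libraries. Column sums ran from 17708300 to 20453100, but these are rescaled totals, so the number of reads behind a feature cannot be given.

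Equal responses were the smaller share of what both stimuli raised. Under the same limits on mock level and on overlap, 913 features had a change of at least 1 after both stimuli, and the 96 are 10.5% of them. In 748 of the 913 the change after GSH was larger by 0.4 or more, in 41 the change after flies was larger by 0.4 or more, and 28 were within 0.4 but reached 2.5 or more. Within the same range of change (1 to 2.5 after both), 271 features were found, of which 96 were equal, 159 had the larger change after GSH and 16 after flies. The mean mock levels of the 96, in TPM, had medians of 2.98 for the GSH mock and 1.45 for the fly mock, against 2.79 and 1.93 for the 748 with the larger change after GSH. These counts and levels follow from the rule and are given as a description. The counts use centred changes, from which a median of -0.34 was subtracted after GSH and -0.02 after flies. This raises the changes after GSH more than those after flies, and the split of the 913 was not counted without it.

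**Figure D1:**
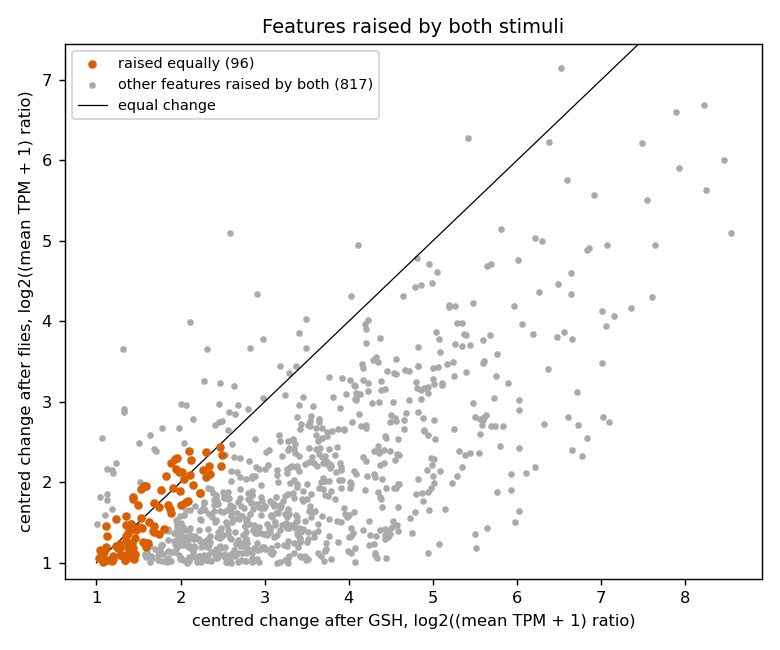
Each point is 1 of the 913 features raised by both stimuli, with the change after GSH on the x axis and after flies on the y axis, both centred and on the log2(mean TPM + 1) scale. The 96 equal features (orange) lie along the line of equal change below 2.5, while most of the others (grey) lie below that line, where the change after GSH is larger.

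The limits of the rule cut through a continuous distribution. The members nearest to the lower limit had a smaller change of 1.00, 1.02 and 1.03, and the nearest features outside had 0.99, 0.99 and 0.98. At the upper limit the larger change was 2.497, 2.48 and 2.46 inside, and 2.53, 2.61 and 2.63 outside. At the limit on the difference the values were 0.40, 0.39 and 0.39 inside, and 0.40, 0.40 and 0.40 outside. The limit on mock level removed 1 feature, with a mock mean of 954 TPM, while the highest mock mean among the 96 was 85.8 TPM. The demand that closed and mock libraries do not overlap removed 212 features that met all other limits. The members with the narrowest gap between the groups had 0.0199, 0.05 and 0.0702 TPM between the lowest closed and the highest mock library, and the nearest features outside had a gap of 0.

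Across the 96, the change after GSH had a median of 1.53 and lay between 1.03 and 2.5. The change after flies had a median of 1.45 and lay between 1.00 and 2.44. Both changes were under 1.5 in 41 members and at least 2 in 13, and the other 42 lay between. The change after GSH was the larger one in 62 members and the change after flies in 34. In 27 members the changes differed by less than 0.1 and in 48 by less than 0.2.

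The closeness of the changes depends on how the libraries are centred and on the 1 added to each mean. Without subtracting the median change of all features, the median was 1.19 after GSH and 1.43 after flies. The change after flies was then the larger one in 84 members and the change after GSH in 12. The rule without that subtraction found 134 features, of which 57 are among the 96. With a scaling by trimmed mean of log ratios in its place it found 95, of which 82 are among the 96. With the median subtracted but 0.1 added in place of 1, the rule found 125 features, of which 44 are among the 96.

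Together the members held a small part of the RNA. Their summed TPM was 2645, 2678 and 2661 in the GSH-closed libraries and 946, 986 and 993 in the GSH mock libraries. In the fly experiment it was 1837, 1986 and 2092 in the fly-closed libraries and 582, 567 and 611 in the fly mock libraries. As a share of the library this is 0.266% ± 0.00165 (SD, n = 3) in GSH-closed traps and 0.0975% ± 0.00253 in their mock, and 0.197% ± 0.0129 in fly-closed traps and 0.0587% ± 0.00223 in their mock. The sum in closed traps was 2.73 times that in the mock after GSH and 3.36 times after flies. These ratios do not subtract the median change of all features (-0.34 after GSH and -0.02 after flies on the log2 scale). They therefore cannot be set beside the centred changes, and their order depends on the centring. The share in GSH mock traps was thus above that in fly mock traps, and the share in GSH-closed traps above that in fly-closed traps, in every library. A few members carried much of this gap: the 5 with the largest excess in GSH-closed over fly-closed traps (ranks 1, 3, 5, 16 and 17, picked after their values were seen) made up 423 of 689.7 TPM between the closed groups and 185 of 388 TPM between the mocks. Without them the summed mean TPM of the other 91 was 2004 in GSH-closed and 722 in GSH mock traps, and 1737 in fly-closed and 519 in fly mock traps. The 10 members with the largest gain in mean TPM made up 48.3% of the gain after GSH, and the 10 with the largest gain after flies made up 45.4% of that after flies.

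**Figure D2:**
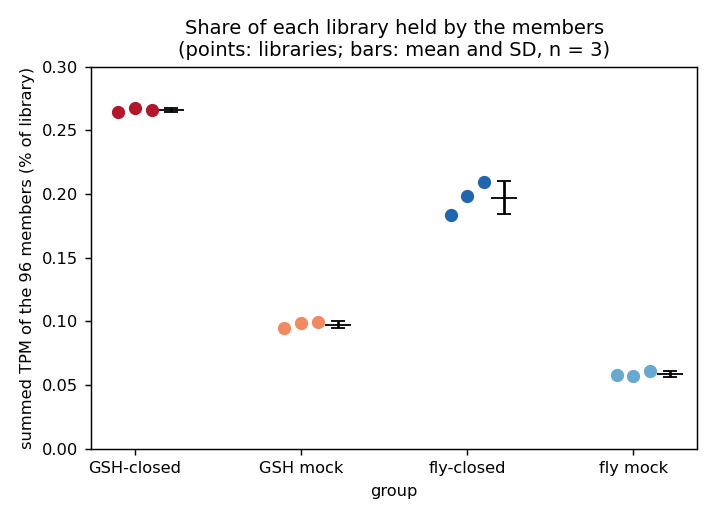
Summed TPM of the 96 members as a percent of each library, for GSH-closed, GSH mock, fly-closed and fly mock traps. Points are the 3 libraries of a group and bars are the mean and SD; the members were chosen to be higher in closed traps, and both summed levels were higher in the GSH experiment, a gap carried in large part by 5 abundant members.

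Levels spanned a wide range. Mean mock levels were under 1 TPM in both experiments for 34 members and at least 10 TPM in both for 19, with 43 between. The median change of the 34 low members was 1.46 after GSH and 1.36 after flies, and that of the 19 abundant members was 1.80 after GSH and 1.42 after flies. In closed traps, 46 members reached a mean of at least 10 TPM after GSH and 46 after flies. Above 0 in all 12 libraries were 67 members. The other 29 were listed at 0 in at least 1 mock library, and none was at 0 in a closed library, which the rule requires.

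**Figure D3:**
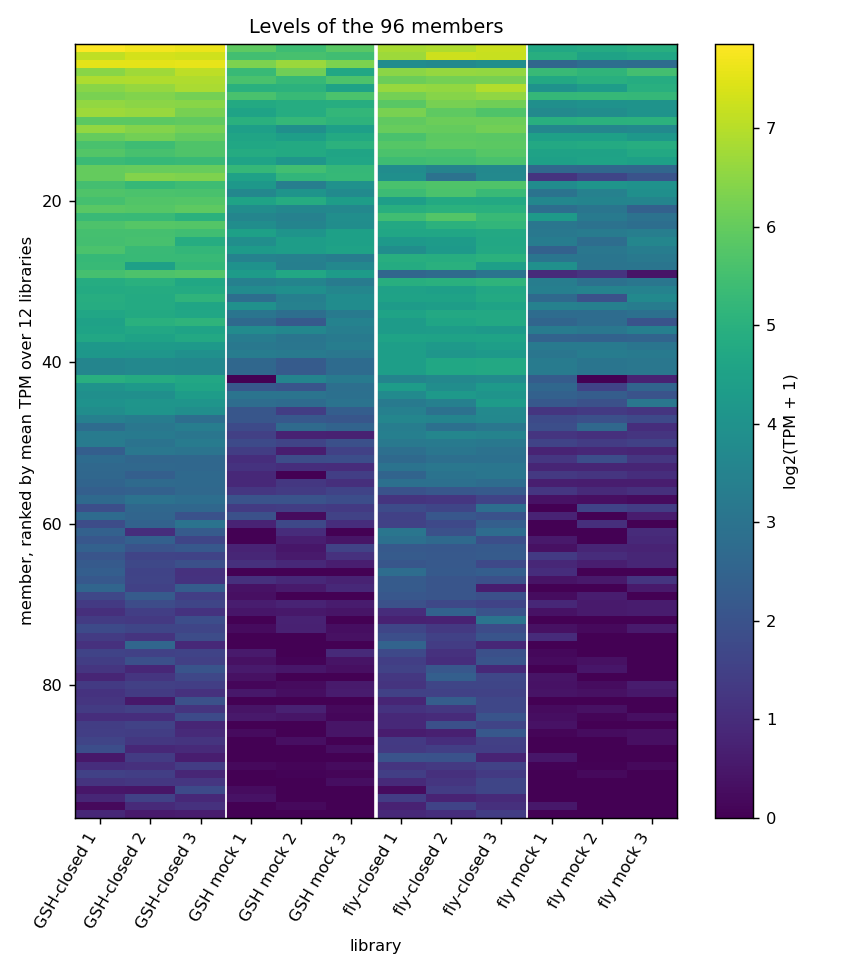
Level of each of the 96 members (rows, ranked by mean TPM) in each of the 12 libraries (columns), as log2(TPM + 1). Within each experiment the closed columns are brighter than the mock columns in every row, as the rule demands, and a few rows, such as ranks 3, 16, 17 and 29, are darker in the whole fly experiment.

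The most abundant member was TRINITY_DN5352_c0_g1. It had 231, 211 and 197 TPM in GSH-closed traps and 58.9, 41.5 and 56.9 TPM in GSH mock traps. In the fly experiment it had 113, 120 and 148 TPM in fly-closed traps and 25.3, 27.1 and 29.1 TPM in fly mock traps. Both closed groups lay well above their own mock, and all GSH-closed libraries lay above all fly-closed libraries. Its change was 2.34 after GSH and 2.20 after flies.

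The largest response shared by both stimuli, among members above 0 throughout and alone in their assembly component, was that of TRINITY_DN3265_c0_g1 (rank 11). It had 94.3, 83.4 and 72.9 TPM in GSH-closed traps and 20.5, 14.1 and 20.7 TPM in GSH mock traps. In the fly experiment it had 64.1, 63.7 and 72.2 TPM in fly-closed traps and 11.6, 11.3 and 12.2 TPM in fly mock traps. The groups did not overlap in either experiment, and the changes were 2.46 after GSH and 2.44 after flies. The fly mock libraries of this feature lay closest together, at 11.7 ± 0.456 TPM (SD, n = 3).

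Other abundant members differed in how alike the experiments were. The member of rank 2 averaged 152 ± 13.8 TPM in GSH-closed and 44.1 ± 1.94 TPM in GSH mock traps, and 134 ± 27.1 TPM in fly-closed and 25.0 ± 3.72 TPM in fly mock traps (SD, n = 3). Its changes were 2.10 after GSH and 2.39 after flies. Rank 4 averaged 108 ± 23.0 TPM in GSH-closed and 44.5 ± 22.7 TPM in GSH mock traps, and 93.5 ± 3.79 TPM in fly-closed and 39.4 ± 5.39 TPM in fly mock traps. Its GSH libraries spread widely, with mock values of 38.5, 69.5 and 25.4 TPM, while its fly libraries lay close together. Its changes were 1.61 after GSH and 1.25 after flies. In the limma test given below, which shares the spread over all groups, the GSH increase passed (adjusted p = 0.00243). The fly increase did not (limma adjusted p = 0.0575).

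The members of ranks 62, 52 and 13 had the smallest differences between their changes. The member of rank 13 had 47.7, 41.4 and 50.2 TPM in GSH-closed and 24.9, 26.5 and 31.9 TPM in GSH mock traps. It had 54.0, 59.1 and 58.2 TPM in fly-closed and 25.5, 26.8 and 28.5 TPM in fly mock traps, with changes of 1.06 after GSH and 1.08 after flies. The mock values of the experiments overlapped, while all fly-closed libraries lay above all GSH-closed ones. The smallest difference between the changes belonged to the member of rank 62, with 2.04 after both stimuli. It was low, at 3.27 ± 1.09 TPM in GSH-closed and 0.317 ± 0.297 TPM in GSH mock traps, and at 4.86 ± 1.96 TPM in fly-closed and 0.450 ± 0.445 TPM in fly mock traps (SD, n = 3). The next, of rank 52, had changes of 1.38 after GSH and 1.37 after flies.

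Next to TRINITY_DN3265_c0_g1, the largest shared responses were those of ranks 49 and 42. Rank 49 had 8.64, 8.19 and 7.40 TPM in GSH-closed and 1.78, 0.680 and 0.650 TPM in GSH mock traps, and 9.52, 11.1 and 10.4 TPM in fly-closed and 1.34, 1.15 and 1.31 TPM in fly mock traps. Its mock values overlapped between the experiments, while all its fly-closed libraries lay above all its GSH-closed ones. Its changes were 2.497 after GSH and 2.34 after flies. Rank 42 had 29.99, 27.8 and 25.3 TPM in GSH-closed traps and was listed at 0, 10.8 and 8.27 TPM in GSH mock traps. It had 10.7, 11.7 and 12.9 TPM in fly-closed traps and 3.83, 0 and 0.690 TPM in fly mock traps. Its changes of 2.31 after GSH and 2.37 after flies rest on mock libraries that differ widely. In the limma test given below its fly increase did not pass (adjusted p = 0.114), while its GSH increase did (adjusted p = 0.0233).

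At the low end, 3 members were listed at 0 in all 6 mock libraries, so no fold is given for them. The most abundant of these, of rank 75, had 1.19, 5.04 and 0.870 TPM in GSH-closed traps and 4.64, 1.62 and 0.820 TPM in fly-closed traps. These values spread over several-fold within each group. Among members above 0 in all 12 libraries, the one with the lowest mock level (rank 90) averaged 1.27 ± 0.313 TPM in GSH-closed and 0.130 ± 0.0457 TPM in GSH mock traps, and 1.57 ± 0.320 TPM in fly-closed and 0.0800 ± 0.0699 TPM in fly mock traps (SD, n = 3). Its changes of 1.35 after GSH and 1.27 after flies are small against the ratio of its means because 1 was added. That plain ratio is larger after flies, the reverse of the order of the changes, and it rests on very low mock levels. The next, of ranks 86 and 84, leaned on 1 library after flies. Rank 86 had 0.5, 0.620 and 3.50 TPM in fly-closed traps, and rank 84 had 0.880, 0.940 and 3.13 TPM. Neither fly increase passed the limma test given below (adjusted p = 0.289 and 0.108), while both GSH increases did (adjusted p = 0.0353 and 0.0295).

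A model of all features was fitted with limma to log2(TPM + 1) of the 45503 features that reached 0.526 TPM in at least 3 libraries. Features with a Benjamini-Hochberg adjusted p under 0.05 over all 45503 were called. All 96 members passed this filter. After GSH, 90 of the 96 were called higher, where 14.3% of all tested features were, and after flies 81 were, where 4.93% were. In both comparisons 80 were called, where 3.23% of all tested features were. The rule used these contrasts, so nothing is read from these counts. All 96 limma changes were positive in both comparisons, as the choice of members fixes.

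The precision of the equality varied with abundance. The 95% interval of the GSH effect minus the fly effect from limma had a median half-width of 0.67 on the log2 scale over the 96, from 0.22 to 2.56. It was 0.41 for the 44 members with a mean of at least 10 TPM and 0.81 for the other 52. The interval lay wholly between -1 and 1 in 63 members, of which 36 had a mean of at least 10 TPM, and wholly between -0.4 and 0.4 in 7. Over all tested features 34.6% had an interval between -1 and 1. The rule holds the centre of the members' intervals near 0, so these counts describe precision and are no evidence of equality. For the remaining 33 these data do not exclude a difference between the stimuli of 1 or more on the log2(TPM + 1) scale. For most members the interval reaches beyond the limit of 0.4 that chose them.

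The interval was narrow for TRINITY_DN5352_c0_g1, from -0.14 to 0.58, and for TRINITY_DN3265_c0_g1, from -0.28 to 0.46. For the member of rank 42 it ran from -2.34 to 2.78. The test of the difference called 2 of the 96, where 15.4% of all tested features were called, and the rule limits this difference. Both were abundant members with the larger effect after GSH. Without scaling between libraries 5 members were called, all with the larger effect after flies, and 23.5% of all tested features were called. The median of the difference over all tested features was -0.05 with scaling and -0.29 without it, and over the 96 members it was 0.06 with scaling and -0.23 without it.

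**Figure D4:**
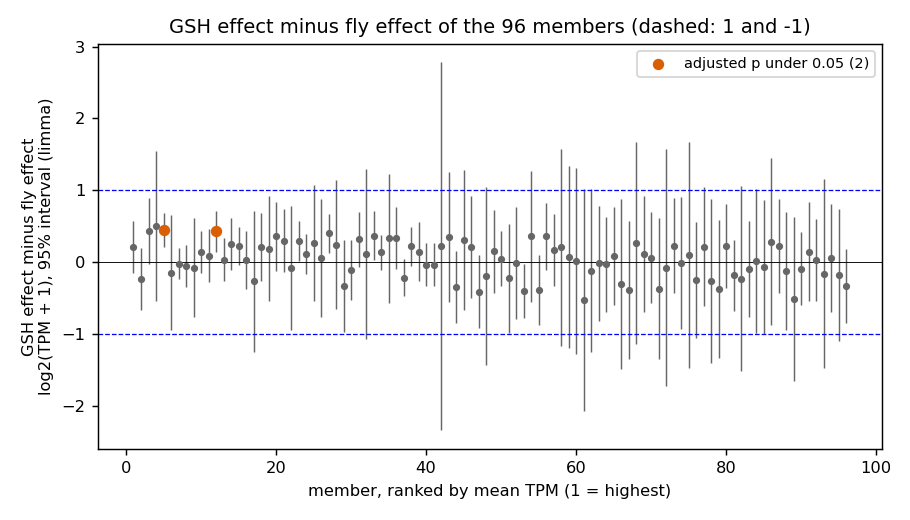
GSH effect minus fly effect of each member on the log2(TPM + 1) scale (y axis, limma estimate with its 95% interval) against its rank by mean TPM (x axis). Intervals are narrower among the abundant members on the left, 63 of 96 lie wholly between the dashed lines at -1 and 1, and the widest is that of rank 42.

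The rule sets no limit on how the level of a member differs between the mock groups of the experiments. Here 20 of the 96 members (20.8%) differed between GSH mock and fly mock, 18 higher in the GSH mock and 2 lower, while 9.52% of all tested features differed, 5.75% higher and 3.77% lower. Without scaling the libraries, 20 members were higher and 2 lower, and 11.6% of all tested features differed. Most of the 20 were abundant: 19 were among the 44 members with a mean of at least 10 TPM (43.2%), where 25.9% of the 13133 tested features of that abundance differed. When the fit held the mock groups alone, 13 members were called, 11 higher and 2 lower, and 5.16% of all tested features were called. The mock values entered the choice of members, so the counts are a description. Over all 96, the median difference was 0.15 on the log2(TPM + 1) scale, against 0.00 over all tested features. Each mock group belongs wholly to its own experiment, so resting state, handling and sequencing cannot be told apart. The libraries of the GSH experiment had 59804 to 63088 features above 0, and those of the fly experiment 74756 to 86499.

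In TPM, without scaling, the 3 GSH mock libraries lay above the 3 fly mock libraries in 27 members, where 17.8% of tested features did so. The 3 fly mock libraries lay above the GSH mock in 2 members, where 7.46% did so.

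For 6 members the mock levels differed by at least 1 on the log2(TPM + 1) scale with a call, where 1.86% of all tested features did. This is after scaling and adding 1, so other called members can lie 2-fold apart in plain TPM, such as rank 24 (19.3 and 8.57 TPM). In all 6 the GSH mock was the higher one. These 6 were chosen after their values were seen. The member of rank 3 had 185, 185 and 187 TPM in GSH-closed and 77.6, 101 and 78.3 TPM in GSH mock traps. In the fly experiment it had 13.0, 12.2 and 13.7 TPM in fly-closed and 5.02, 6.10 and 5.91 TPM in fly mock traps. Every library of the GSH experiment thus lay above every library of the fly experiment, mock or closed, while the changes were 1.44 after GSH and 1.08 after flies. The GSH mock minus fly mock difference was 3.55 ± 0.15 (SE) on the log2(TPM + 1) scale (limma adjusted p = 3.7e-07).

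The members of ranks 29, 17 and 16 were of the same kind in their levels. Rank 29 had 46.0, 50.0 and 52.0 TPM in GSH-closed and 18.9, 25.1 and 19.0 TPM in GSH mock traps, and 5.09, 5.52 and 7.16 TPM in fly-closed and 0.950, 1.26 and 0.370 TPM in fly mock traps. Its mock difference was 3.43 ± 0.20 (SE, limma adjusted p = 5.47e-06), and its changes were 1.53 after GSH and 1.92 after flies. Rank 17 averaged 75.4 ± 10.5 TPM in GSH-closed and 31.2 ± 8.44 TPM in GSH mock traps, and 11.02 ± 3.73 TPM in fly-closed and 2.14 ± 0.865 TPM in fly mock traps (SD, n = 3), with changes of 1.59 after GSH and 1.96 after flies. Rank 16 averaged 63.8 ± 1.36 TPM in GSH-closed and 39.1 ± 4.02 TPM in GSH mock traps, and 11.7 ± 1.32 TPM in fly-closed and 5.19 ± 0.115 TPM in fly mock traps, with changes of 1.03 after GSH and 1.06 after flies. In each of these members the closed traps of the fly experiment stayed below the mock traps of the GSH experiment. At the low fly mock levels of ranks 29 and 17, adding 1 lowers the fly change more than the GSH change. Their plain TPM ratios of closed to mock are further apart than the printed changes, with the larger ratio after flies.

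The other 2 differed by less on the log2(TPM + 1) scale, where adding 1 narrows the difference of a low member such as rank 57. Rank 57 averaged 6.11 ± 0.655 TPM in GSH-closed and 2.91 ± 0.225 TPM in GSH mock traps, and 1.53 ± 0.374 TPM in fly-closed and 0.243 ± 0.0703 TPM in fly mock traps (SD, n = 3). Its mock difference was 1.53 ± 0.16 on the log2(TPM + 1) scale (SE, limma adjusted p = 0.000209). Its changes were 1.20 after GSH and 1.05 after flies, and adding 1 lowers the fly change most, at its low fly mock level. Its plain TPM ratio of closed to mock is larger after flies, the reverse of the order of its printed changes. Rank 26 had 18.3, 19.7 and 21.8 TPM in the GSH mock against 4.40, 7.63 and 9.14 TPM in the fly mock, a difference of 1.28 ± 0.26 (SE, limma adjusted p = 0.0110).

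Over all 96, the 3 fly-closed libraries lay below the 3 GSH mock libraries in 5 members (ranks 3, 16, 17, 29 and 57), where 18.1% of tested features did so, and above them in 82, where 11.3% did so. The rule places the fly-closed libraries above their own mock and uses the GSH mock values too, so these counts are a description.

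The 2 members that were lower in the GSH mock, of ranks 40 and 41, hold identical values in all 12 libraries and belong to the same assembly component. They had 10.9, 11.7 and 11.55 TPM in GSH-closed and 5.15, 3.76 and 5.78 TPM in GSH mock traps, and 20.3, 24.4 and 25.6 TPM in fly-closed and 8.65, 7.35 and 7.70 TPM in fly mock traps. The fly experiment was the higher one in both states, with a mock difference of -0.72 ± 0.10 (SE, limma adjusted p = 0.000877). The 96 members thus carry 95 distinct sets of values. Of all tested features, 18 share their values in every library with another one.

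Closed traps were then set against each other. Between GSH-closed and fly-closed traps, 28 of the 96 (29.2%) differed, 26 higher after GSH and 2 lower, while 29.2% of all tested features differed, 15% higher and 14.2% lower. With no scaling between libraries 19 differed, 15 higher and 4 lower, and 30.8% of all tested features did. The median difference was 0.17 on the log2(TPM + 1) scale with scaling and 0.00 without it, against -0.07 and -0.21 over all tested features. Of the 20 members that differed between the mocks, 19 differed in the same direction between the closed traps. Since the rule keeps the changes within 0.4 of each other, the closed difference of a member has to follow its mock difference, and the agreement is not a separate result.

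TRINITY_DN5352_c0_g1 was higher in the GSH experiment in both states, by 0.77 ± 0.11 between the mocks (SE, limma adjusted p = 0.00181) and by 0.99 ± 0.11 between the closed traps (adjusted p = 7.95e-05). TRINITY_DN3265_c0_g1 was higher by 0.46 ± 0.12 between the mocks (SE, limma adjusted p = 0.0350) and by 0.55 ± 0.12 between the closed traps (adjusted p = 0.00484).

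**Figure D5:**
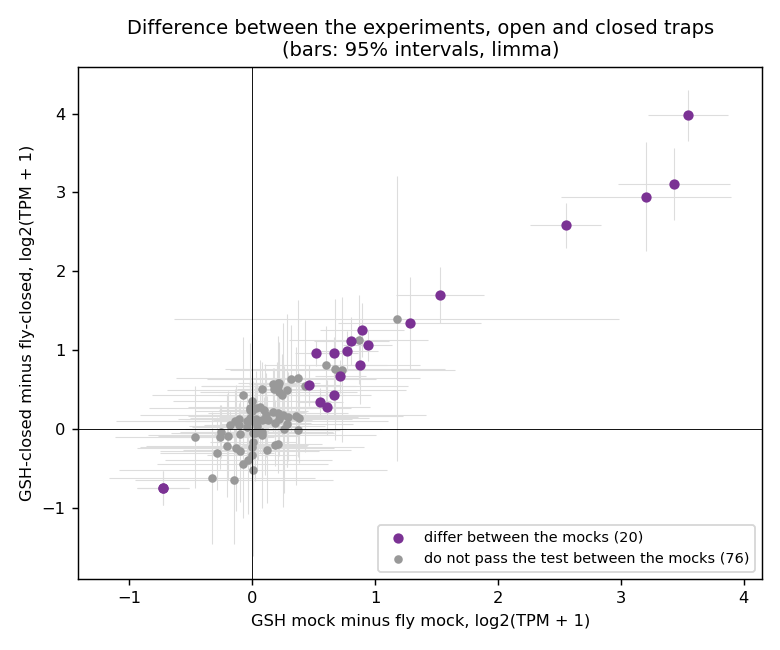
Difference between the experiments for each member, GSH mock minus fly mock on the x axis and GSH-closed minus fly-closed on the y axis, on the log2(TPM + 1) scale with 95% intervals from limma. The 20 members that differ between the mocks (purple) include 4 with differences above 2 on both axes (ranks 3, 16, 17 and 29), and the points follow the diagonal because the rule keeps both changes alike.

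The members came from 94 assembly components, which are groups of assembled transcripts that share sequence. In 2 components there were 2 members each, and 71 members were alone among the tested features of their component. Another 23 members shared their component with a total of 33 tested features that were not members. By this definition the sister features exclude any that met the rule, so the counts describe what was left beside the members. A change of at least 1 after both stimuli was seen in 3 of the 33 (9.09%), where 2.96% of all tested features had one. Their median change was 0.25 after GSH and 0.26 after flies, against 0.06 and 0.02 over all tested features. By limma, 8 of the 33 were called higher after GSH, where 14.3% of all tested features were, and 3 were called lower. After flies 7 were called higher, where 4.93% were, and 0 lower. The lowest and highest change were -1.14 and 2.90 after GSH, and -0.35 and 2.26 after flies. Sister features may share reads with members, and this was not tested.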

How the data were processed

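RNA from whole traps was sequenced in 12 libraries. The submitters' processing notes list DESeq2 (version 1.16.1), RSEM, Trimmomatic and cutadapt without their roles, and the sources used here give no assembly version. The authors' deposited table holds a rescaled signal, not whole counts. Of each library's values between 0 and 60, 100% were multiples, to within 0.0051, of 1e-08 of the column sum, while whole numbers (to within 0.005) made up at most 2.25%. Whether the signal was corrected for feature length was not shown, so levels of different features are set side by side only as deposited. Groups came from the sample titles.

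Values were converted to TPM and the selection rule applied, reading the mock limit as one on each mock mean. For limma version 3.58.1 (R version 4.3.3), scaling factors were trimmed means of log ratios over the tested features (30% of ratios and 5% of abundances trimmed at each end, no weights). Features were tested at 0.526 TPM, equal to 10 deposited units in a library of median sum, in 3 libraries. The model had 4 groups, a pseudocount of 1, and trend and robust options. Tested on simulated data (the GSH comparison, 45503 features), it found 73% of 100 planted 2-fold changes and 88% of 100 planted 4-fold changes, with 4 false calls. The changes were planted on the log2(TPM + 1) scale, only in features with a GSH mock mean of at least 3 on it. The recovery therefore does not cover low members, such as the 34 with both mock means under 1 TPM.

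The 2 named features are, among members above 0 in all 12 libraries and alone in their component, the most abundant one and the one with the largest smaller change. Others are given by rank: the next 4 by abundance, and 3 each by lowest mock level, largest smaller change and smallest difference. Members, lists and tests were chosen with earlier results of these data known. Alternatives covered scaling, filter, pseudocount, replicate block, groups in the fit, the limits of the rule, and leaving out each library.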

Additional observations from a re-analysis of the deposited data

Results flagged for a closer look

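For 2 of the 96 members the test of the difference between the stimuli was passed although their mean changes differed by less than 0.4. Rank 5 by mean TPM had 117, 120 and 121 TPM in GSH-closed and 47.9, 37.1 and 49.2 TPM in GSH mock traps, and 67.7, 72.7 and 75.2 TPM in fly-closed and 25.7, 29.98 and 28.03 TPM in fly mock traps. Its GSH effect exceeded its fly effect by 0.45 ± 0.11 (SE) on the log2(TPM + 1) scale (limma adjusted p = 0.0180) in the fit reported here. Of 18 other settings 16 kept this call and 2 lost it, and the limma adjusted p ran between 0.00379 and 0.777. Rank 12 averaged 65.6 ± 5.82 TPM in GSH-closed and 23.2 ± 3.29 TPM in GSH mock traps, and 54.1 ± 5.32 TPM in fly-closed and 19.8 ± 2.11 TPM in fly mock traps (SD, n = 3). Its GSH effect was larger by 0.43 ± 0.13 (SE, limma adjusted p = 0.0464) in the fit reported here. For this member 5 of the 18 settings kept the call and 13 lost it, the limma adjusted p lying between 0.0215 and 0.844. With no scaling between libraries the differences were 0.07 for rank 5 and 0.06 for rank 12, and neither was called; the 5 members called then had the larger effect after flies.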

How the results depend on the processing

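Counts of members called between closed and mock traps, and between the closed groups, stayed within 1.5 times under every alternative. Leaving out each library gave 80 to 91 called after GSH, 71 to 82 after flies, 17 to 21 between the mocks and 24 to 29 between the closed groups. Of all tested features, 23.0% to 26.6% were then called in either direction after GSH and 3.27% to 6.13% after flies. Between the mocks the share was 7.04% to 9.63%, and between the closed groups 24.5% to 30.6%. The number with different effects was 2. It became 5 with no scaling, 0 with no filter on low values (limma, where 5 members have an unadjusted p under 0.05), 1 with a pseudocount of 0.1, 1 with the replicate block and 1 to 5 when a library was left out, 5 of them without GSH mock replicate 2. In the same order, these settings called 23.5%, 1.54%, 14.6%, 13.8% and 12.1% to 15.3% of all tested features. The fit reported here called 15.4%. In a fit of the mock groups alone, 13 members differed between the mocks, where 5.16% of all tested features did. The cause was not tested.

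The rule gave 308 features with no demand on overlap, and 94 to 122 with a library left out, of which 76 to 86 were among the 96; 31 members were kept throughout. A pseudocount of 0.1 gave 125 features, 44 of them among the 96, with median changes of the 96 of 2.19 after GSH and 2.25 after flies. Without subtraction of the median the change after GSH was 1.19. With a library left out the medians were 1.46 to 1.54 after GSH and 1.39 to 1.48 after flies.

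Same-numbered libraries did not deviate together (correlations from -0.03 to 0.02, and no library correlated best with its own number in every other group), so the block pairs samples by number only. The read depth behind low features is unknown.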
